A study of Mus musculus with 6 samples.

Results

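Matricellular proteins are secreted into the extracellular matrix, where they change how cells bind and sense the matrix rather than serving mainly as its scaffold. In the heart many of them are made by fibroblasts and become abundant after injury. The 10 genes described here were Thbs1, Thbs2, Thbs3, Thbs4, Postn, Tnc, Spp1, Sparc, Cthrc1 and Fn1, the last coding for fibronectin, a structural matrix glycoprotein that many of the others bind. They were found by symbol among the 32245 gene symbols of the count files, and all 10 were found and passed the filter on low counts. They were chosen by symbol with earlier results of these counts known, including fold changes of Thbs2, Postn, Tnc and Cthrc1. For those 4 genes the fold changes are therefore given as a description with no p-value.

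The cells were wild-type primary cardiomyocytes from neonatal mouse hearts, and polyadenylated RNA was sequenced. There were 3 groups of 2 libraries each, namely cells given BMP2 together with dorsomorphin (BMP2+DM), cells given BMP2, and cells given phosphate-buffered saline (PBS). BMP2 is a secreted ligand whose receptors phosphorylate SMAD transcription factors, and dorsomorphin blocks the kinase of those receptors and also AMP-activated protein kinase. Dose, duration and the number of animals per library are not stated in the labels, and no group received dorsomorphin alone. Nothing says that the 2 libraries of a group came from separate cultures, so p-values measure only the spread between these samples.

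BMP2+DM cells gave 10140668 and 10106667 gene counts, BMP2 cells 11132019 and 10362486, and PBS cells 14366042 and 11652488. The 10 genes held 1.11% and 1.14% of them in BMP2+DM cells, 1.42% and 1.45% in BMP2 cells and 1.49% and 1.56% in PBS cells. All 10 cardiomyocyte markers examined had counts in every group, and together they made up 26123 to 26381 CPM in BMP2+DM cells, 24088 to 24307 CPM in BMP2 cells and 28583 to 29006 CPM in PBS cells. Fibroblast markers were present as well, with all 11 counted in every group and a sum of 10555 to 11044 CPM in BMP2+DM cells, 11451 to 11717 CPM in BMP2 cells and 11605 to 12322 CPM in PBS cells. The first PBS and the first BMP2 library stood apart from the others in ribosomal-repeat reads, with 1.31% and 2.10% of their gene counts against 0.0702% to 0.0928% in the other 4. CPM here is a count scaled to library size, with library sizes adjusted by TMM, a method that assumes most genes do not change.

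Across the 3 treatments 4 patterns were seen. Thbs2, Postn and Cthrc1 were higher in BMP2 cells than in PBS cells and lower in BMP2+DM cells than in BMP2 cells. Thbs1, Tnc and Fn1 were lower in BMP2 cells than in PBS cells and lower again in BMP2+DM cells. Thbs4, Spp1 and Sparc were lower in BMP2 cells than in PBS cells, with no call between BMP2+DM and BMP2 cells. Thbs3 passed the threshold in no comparison. A call here is an adjusted p under 0.05 from edgeR's quasi-likelihood test over 14378 genes.

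**Figure D1:**
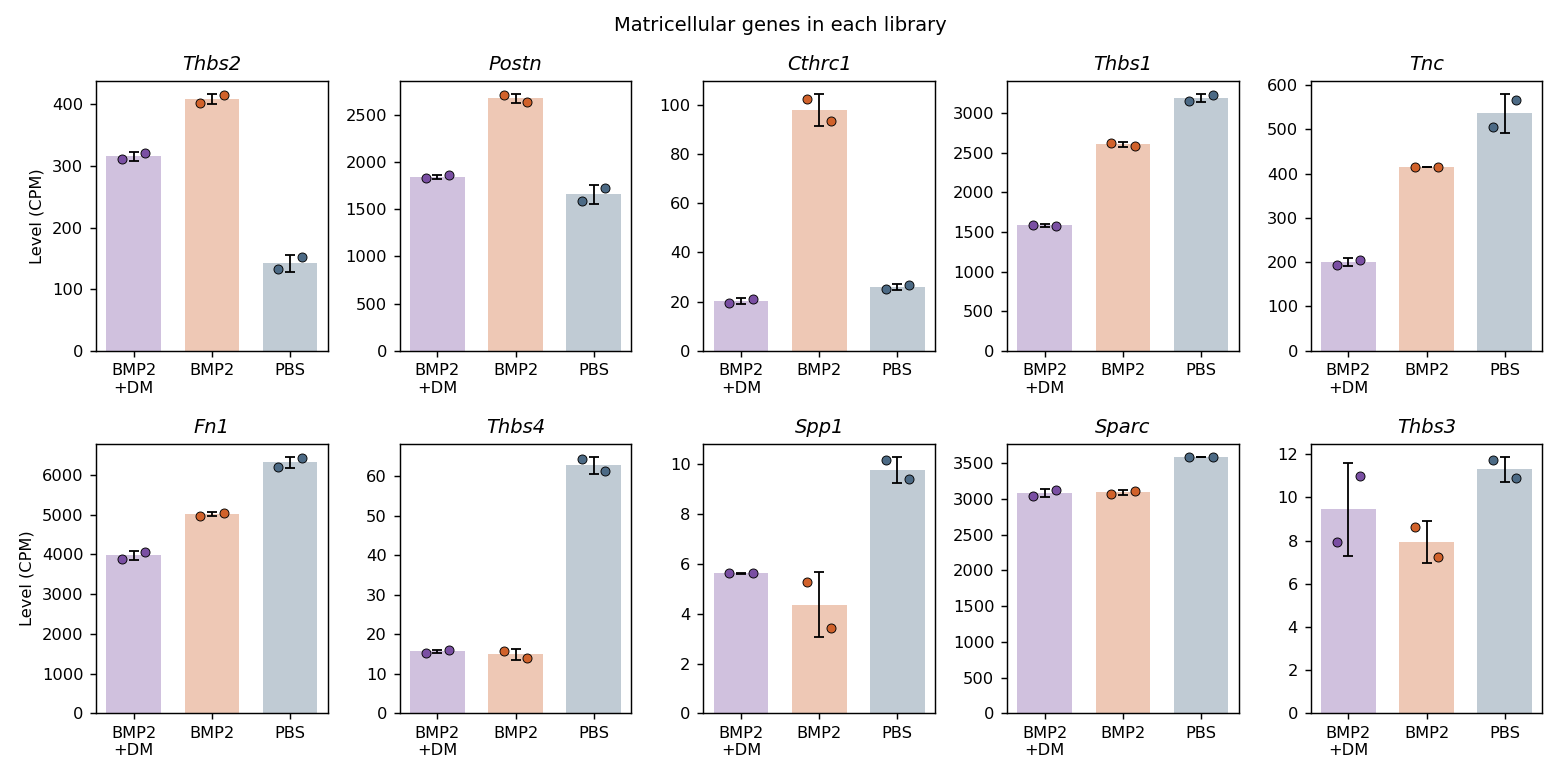
Level of each of the 10 genes (CPM, axes from 0) in BMP2+DM, BMP2 and PBS cells from left to right. Points are single libraries, bars are means and error bars are SD (n = 2). Thbs2, Postn and Cthrc1 have their highest mean in BMP2 cells, while the other 7 have theirs in PBS cells.

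Thbs2 codes for thrombospondin 2, a trimeric glycoprotein known as an inhibitor of angiogenesis and for its part in collagen fibril assembly. It lies on the minus strand of chromosome 17, at chr17:14665500-14694235 of mm10. It had 311 and 321 CPM in BMP2+DM cells, 403 and 415 CPM in BMP2 cells and 132 and 152 CPM in PBS cells. Both BMP2 libraries lay above all others, both PBS libraries lay below all others, and no groups overlapped. Thbs2 was 2.88-fold higher in BMP2 than in PBS cells, a log2 fold change of 1.53 ± 0.06 (SE). It was 1.29-fold lower in BMP2+DM than in BMP2 cells (log2 fold change -0.37 ± 0.06), and it still stood 2.23-fold above PBS in BMP2+DM cells (1.15 ± 0.06). Dorsomorphin thus came with a lower Thbs2 level that remained well above that of PBS cells. Because the RNA came from bulk cells, fewer cells of a type and less RNA per cell cannot be told apart, here and in all results that follow.

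Postn codes for periostin, which binds integrins and collagen and is a known product of activated cardiac fibroblasts. It lies on the plus strand at chr3:54361109-54391037 of mm10. Its levels were 1827 and 1858 CPM in BMP2+DM cells, 2708 and 2640 CPM in BMP2 cells and 1587 and 1729 CPM in PBS cells. The BMP2 libraries were the highest, and the BMP2+DM libraries lay just above the PBS libraries. Postn was 1.61-fold higher in BMP2 than in PBS cells (log2 fold change 0.69 ± 0.05) and 1.45-fold lower in BMP2+DM than in BMP2 cells (-0.54 ± 0.05). BMP2+DM cells differed from PBS cells by a log2 fold change of only 0.15 ± 0.05. It was 0.09 without the first PBS library and 0.22 without the second, and 0.16 and 0.14 without the first and the second BMP2+DM library.

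Cthrc1 codes for collagen triple helix repeat containing 1, a secreted glycoprotein of activated fibroblasts and injured arteries. It lies on the plus strand at chr15:39076932-39087121 of mm10. It had 19.6 and 21.2 CPM in BMP2+DM cells, 102.7 and 93.5 CPM in BMP2 cells and 25.1 and 26.8 CPM in PBS cells. These levels rested on 202 and 218 counts in BMP2+DM cells, 1129 and 979 in BMP2 cells and 351 and 308 in PBS cells. The BMP2 libraries stood far above the other 4, and the BMP2+DM libraries lay below the PBS libraries. Cthrc1 was 3.78-fold higher in BMP2 than in PBS cells (log2 fold change 1.92 ± 0.11) and 4.81-fold lower in BMP2+DM than in BMP2 cells (-2.27 ± 0.12), the largest difference among the 10 genes in that comparison. BMP2+DM cells differed from PBS cells by -0.35 ± 0.13, which did not pass the threshold, a description as elsewhere for this gene. Its 95% interval, not adjusted for the number of genes tested, ran from -0.61 to -0.08.

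Thbs2, Postn and Cthrc1 shared the direction of both steps, but no promoter window was matched by symbol for Cthrc1. The windows of Thbs2 and Postn are shown, as given by RefSeq on GRCm38.p6 for 250 bases before to 50 after the start site. The Thbs2 window is chr17:14694213-14694512 on the minus strand, and the Postn window is chr3:54360857-54361156 on the plus strand. Capitals mark the searched motifs on either strand, which were GGCGCC as a GC-rich SMAD1/5 element, the related element GGAGCC, the SMAD3/4 element CAGAC, the TEAD element GGAATG, the AP-1 element TGACTCA and the TATA box TATAAA.
Thbs2: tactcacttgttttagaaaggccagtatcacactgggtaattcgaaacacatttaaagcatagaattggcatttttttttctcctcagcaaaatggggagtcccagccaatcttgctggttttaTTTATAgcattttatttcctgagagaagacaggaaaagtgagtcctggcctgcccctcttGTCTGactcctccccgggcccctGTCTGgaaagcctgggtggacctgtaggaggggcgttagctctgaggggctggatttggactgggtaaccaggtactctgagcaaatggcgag
Postn: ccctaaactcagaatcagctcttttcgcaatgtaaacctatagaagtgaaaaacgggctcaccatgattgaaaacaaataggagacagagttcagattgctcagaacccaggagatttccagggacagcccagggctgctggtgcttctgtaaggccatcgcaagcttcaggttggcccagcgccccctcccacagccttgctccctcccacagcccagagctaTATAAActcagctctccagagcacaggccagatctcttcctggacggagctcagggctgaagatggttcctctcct
The Thbs2 window held CAGAC 2 times on the reverse strand, read as GTCTG, 66 to 62 and 43 to 39 bases before the start, and TATAAA 1 time on the reverse strand, read as TTTATA. The Postn window held TATAAA, beginning 26 bases before the start, and none of the other 5 motifs. CAGAC was present in 49.6% of 32851 promoter windows of the same length, TATAAA in 13.6%, GGCGCC in 11.9%, GGAGCC in 30.8%, GGAATG in 14.7% and TGACTCA in 5.2%. A match is a description of letters in this window and not evidence of a bound site.

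Thbs1 codes for thrombospondin 1, a trimer that activates latent TGF-beta and binds the receptors CD36 and CD47. The gene lies on the plus strand at chr2:118111876-118127133 of mm10. It had 1593 and 1574 CPM in BMP2+DM cells, 2630 and 2584 CPM in BMP2 cells and 3158 and 3232 CPM in PBS cells. The 3 groups did not overlap, with BMP2+DM lowest and PBS highest. Thbs1 fell 1.23-fold in BMP2 cells against PBS cells (log2 fold change -0.29 ± 0.04, edgeR adjusted p = 0.000124). It fell further in BMP2+DM cells, 1.65-fold against BMP2 cells (-0.72 ± 0.04, adjusted p = 7.62e-09) and 2.02-fold against PBS cells (-1.01 ± 0.04, adjusted p = 2.27e-11).

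Tnc codes for tenascin C, a hexameric glycoprotein that loosens cell adhesion and reappears in injured heart tissue. The gene lies on the minus strand at chr4:63959785-64047015 of mm10. It had 194 and 206 CPM in BMP2+DM cells, 414 and 415 CPM in BMP2 cells and 505 and 567 CPM in PBS cells. The order of the 3 groups was that of Thbs1, again with no overlap. Tnc was 1.29-fold lower in BMP2 than in PBS cells (log2 fold change -0.37 ± 0.05), 2.07-fold lower in BMP2+DM than in BMP2 cells (-1.05 ± 0.06) and 2.68-fold lower in BMP2+DM than in PBS cells (-1.42 ± 0.06). The step that came with dorsomorphin was the larger one for both Thbs1 and Tnc, although the difference between the steps was not tested.

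Fn1 codes for fibronectin, onto which other matrix proteins assemble. Fn1 lies on the minus strand at chr1:71585520-71653200 of mm10. It had 3895 and 4061 CPM in BMP2+DM cells, 4978 and 5054 CPM in BMP2 cells and 6209 and 6419 CPM in PBS cells, the most counts of the 10 genes. Fn1 fell 1.26-fold in BMP2 cells against PBS cells (log2 fold change -0.33 ± 0.04, edgeR adjusted p = 5.42e-06). It fell 1.26-fold again in BMP2+DM cells against BMP2 cells (-0.33 ± 0.04, adjusted p = 1.31e-05), and 1.59-fold against PBS cells (-0.67 ± 0.04, adjusted p = 5.64e-10). The BMP2 libraries thus lay about midway on the log2 scale, without overlap with either group.

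The promoter window of Tnc, chr4:64046966-64047265 of GRCm38.p6 on the minus strand from RefSeq, is shown as that of a gene lower at both steps. Capitals mark the same 6 motifs on either strand.
Tnc: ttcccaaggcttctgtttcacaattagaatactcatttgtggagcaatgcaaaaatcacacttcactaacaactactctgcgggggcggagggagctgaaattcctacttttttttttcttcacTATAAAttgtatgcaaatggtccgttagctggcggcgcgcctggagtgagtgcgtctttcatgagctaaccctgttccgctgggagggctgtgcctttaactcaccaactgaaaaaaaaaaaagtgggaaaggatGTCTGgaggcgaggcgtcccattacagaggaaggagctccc
It held TATAAA 1 time, far upstream of the start, and CAGAC 1 time on the reverse strand, read as GTCTG, 9 bases past the start. The other 4 motifs had no match in these letters.

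Thbs4 codes for thrombospondin 4, a pentamer that is induced in stressed mouse heart and there acts partly inside the endoplasmic reticulum. Thbs4 lies on the minus strand at chr13:92751590-92794818 of mm10. It had 15.4 and 16.0 CPM in BMP2+DM cells, 15.9 and 13.9 CPM in BMP2 cells and 64.3 and 61.2 CPM in PBS cells. All 4 libraries given BMP2 lay far below both PBS libraries, and the BMP2+DM and BMP2 libraries overlapped. Thbs4 fell 4.20-fold in BMP2 cells against PBS cells (log2 fold change -2.07 ± 0.13, edgeR adjusted p = 5.08e-09) and 3.99-fold in BMP2+DM cells against PBS cells (-2.00 ± 0.13, adjusted p = 5.21e-09). BMP2+DM cells differed from BMP2 cells by 0.07 ± 0.15 (adjusted p = 0.833), with a 95% interval from -0.24 to 0.39. That interval does not reach the size of the difference from PBS.

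The Thbs4 promoter window, chr13:92794769-92795068 of GRCm38.p6 on the minus strand from RefSeq, is shown because Thbs4 differed most from PBS among the genes lower with BMP2. Capitals mark the same motifs.
Thbs4: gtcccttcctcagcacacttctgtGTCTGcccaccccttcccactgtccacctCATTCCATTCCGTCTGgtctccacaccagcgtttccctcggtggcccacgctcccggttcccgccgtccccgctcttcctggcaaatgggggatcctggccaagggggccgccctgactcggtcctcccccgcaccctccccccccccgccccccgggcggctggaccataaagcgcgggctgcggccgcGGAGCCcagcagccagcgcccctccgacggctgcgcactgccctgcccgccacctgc
It was richer in G and C, at 72.0%, than the windows of Thbs2 (48.3%), Postn (53.0%) and Tnc (47.3%). It held GGAGCC 1 time, beginning 7 bases before the start, CAGAC 2 times on the reverse strand and GGAATG 2 times on the reverse strand, read as CATTCC, the 2 sharing 1 base. No TATAAA was found in this window.

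Sparc codes for a collagen-binding glycoprotein, also called osteonectin, that takes part in procollagen processing. Sparc lies on the minus strand at chr11:55394500-55423183 of mm10. It had 3041 and 3120 CPM in BMP2+DM cells, 3066 and 3110 CPM in BMP2 cells and 3588 and 3579 CPM in PBS cells. The 4 libraries given BMP2 overlapped and lay below both PBS libraries. Sparc fell 1.16-fold in BMP2 cells against PBS cells (log2 fold change -0.21 ± 0.04, edgeR adjusted p = 0.00113) and 1.16-fold in BMP2+DM cells against PBS cells (-0.22 ± 0.04, adjusted p = 0.000759). The difference of BMP2+DM from BMP2 cells was -0.00 ± 0.04 (adjusted p = 0.974), with a 95% interval from -0.09 to 0.08.

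Spp1 codes for osteopontin, a ligand of integrins and CD44 that macrophages and other cells secrete. Spp1 lies on the plus strand at chr5:104435118-104441050 of mm10. It was scarce, with 58 and 58 counts in BMP2+DM cells, 58 and 36 in BMP2 cells and 142 and 108 in PBS cells. Its levels were 5.62 and 5.64 CPM in BMP2+DM cells, 5.27 and 3.44 CPM in BMP2 cells and 10.1 and 9.40 CPM in PBS cells, so the PBS libraries were highest and no groups overlapped. Spp1 fell 2.24-fold in BMP2 cells against PBS cells (log2 fold change -1.16 ± 0.27, edgeR adjusted p = 0.00522) and 1.74-fold in BMP2+DM cells against PBS cells (-0.80 ± 0.26, adjusted p = 0.0365). In BMP2+DM against BMP2 cells it differed by 0.37 ± 0.28 (adjusted p = 0.5), with a 95% interval from -0.23 to 0.96. The call against PBS in BMP2 cells was lost without the first PBS library (-1.11, adjusted p = 0.0561) or the second BMP2 library (-0.89, adjusted p = 0.0735). The call in BMP2+DM cells was lost when any 1 of the 4 libraries compared was left out (adjusted p = 0.111 to 0.177) and with DESeq2 (adjusted p = 0.103).

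Thbs3 codes for thrombospondin 3, a pentamer like Thbs4. It lies on the plus strand at chr3:89215180-89226837 of mm10. It had 7.94 and 11.0 CPM in BMP2+DM cells, 8.64 and 7.26 CPM in BMP2 cells and 11.7 and 10.9 CPM in PBS cells. Of the BMP2+DM libraries, the first lay between the BMP2 libraries and the second between the PBS libraries. Its log2 fold changes were -0.51 ± 0.22 in BMP2 against PBS cells (edgeR adjusted p = 0.144, 95% interval -0.98 to -0.04), 0.25 ± 0.23 in BMP2+DM against BMP2 cells (adjusted p = 0.591, interval -0.24 to 0.73) and -0.26 ± 0.22 in BMP2+DM against PBS cells (adjusted p = 0.461, interval -0.72 to 0.21). These values rested on 195 counts in BMP2+DM cells, 171 in BMP2 cells and 289 in PBS cells.

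**Figure D2:**
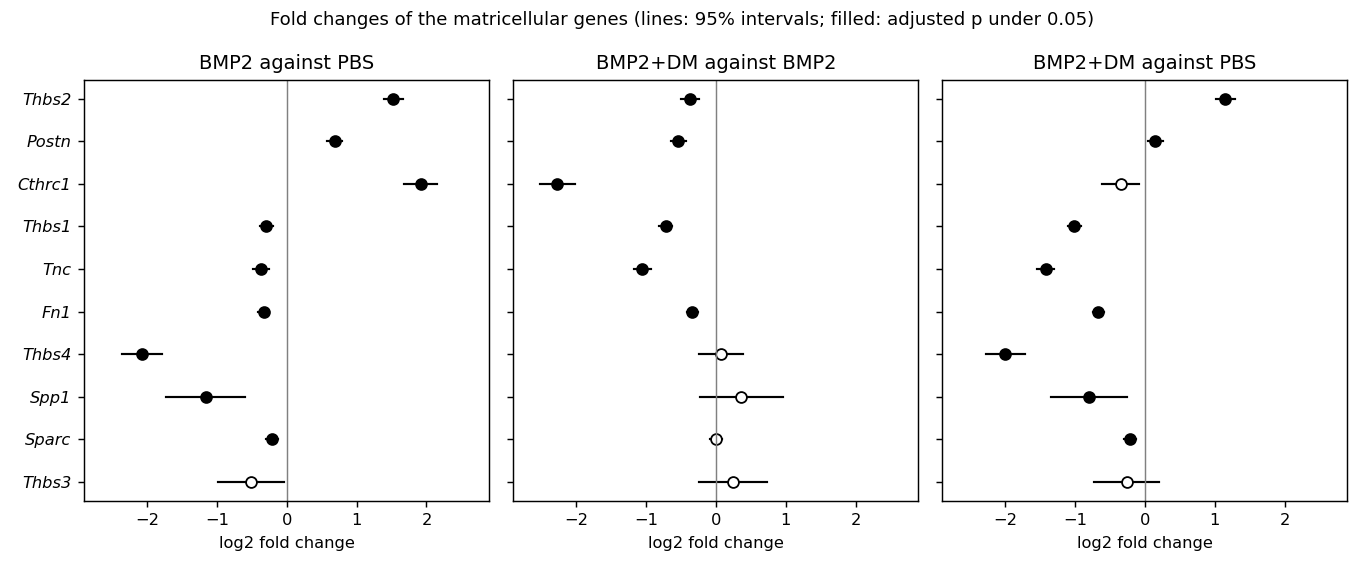
Log2 fold change of each of the 10 genes, 1 panel for each comparison. Lines are 95% intervals, and filled points passed an adjusted p of 0.05, which for Thbs2, Postn, Tnc and Cthrc1 is a description. Thbs2 is at 1.53, Cthrc1 at 1.92 and Thbs4 at -2.07 in BMP2 against PBS, and Cthrc1 is at -2.27 in BMP2+DM against BMP2.

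In BMP2 against PBS cells 3 of the 10 genes were called higher and 6 lower, where 6.55% of all genes tested were called higher, 9.29% lower and 15.8% in either direction. In BMP2+DM against BMP2 cells 0 were called higher and 6 lower, where 4.28% of all genes were called higher, 4.44% lower and 8.73% in either direction. In BMP2+DM against PBS cells 2 were called higher and 6 lower, where 9.38% of all genes were called higher, 11.5% lower and 20.9% in either direction. The median log2 fold change of the 10 genes was -0.31, -0.35 and -0.51 in these comparisons, beside 0.00, 0.00 and 0.01 over all genes tested. Tested against a minimum fold of 1.5, edgeR no longer called Thbs1, Postn, Tnc, Spp1, Sparc and Fn1 in BMP2 against PBS. Calls were also lost for Thbs1, Thbs2, Postn and Fn1 in BMP2+DM against BMP2, and for Postn, Spp1, Sparc and Fn1 in BMP2+DM against PBS. For Thbs2, Postn and Tnc this is a description. Since the genes were chosen with these comparisons known, nothing is read from these shares. The comparisons also share libraries, so their fold changes are not independent. BMP2 was shared by the first and second, BMP2+DM by the second and last, and PBS by the first and last.

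**Figure D3:**
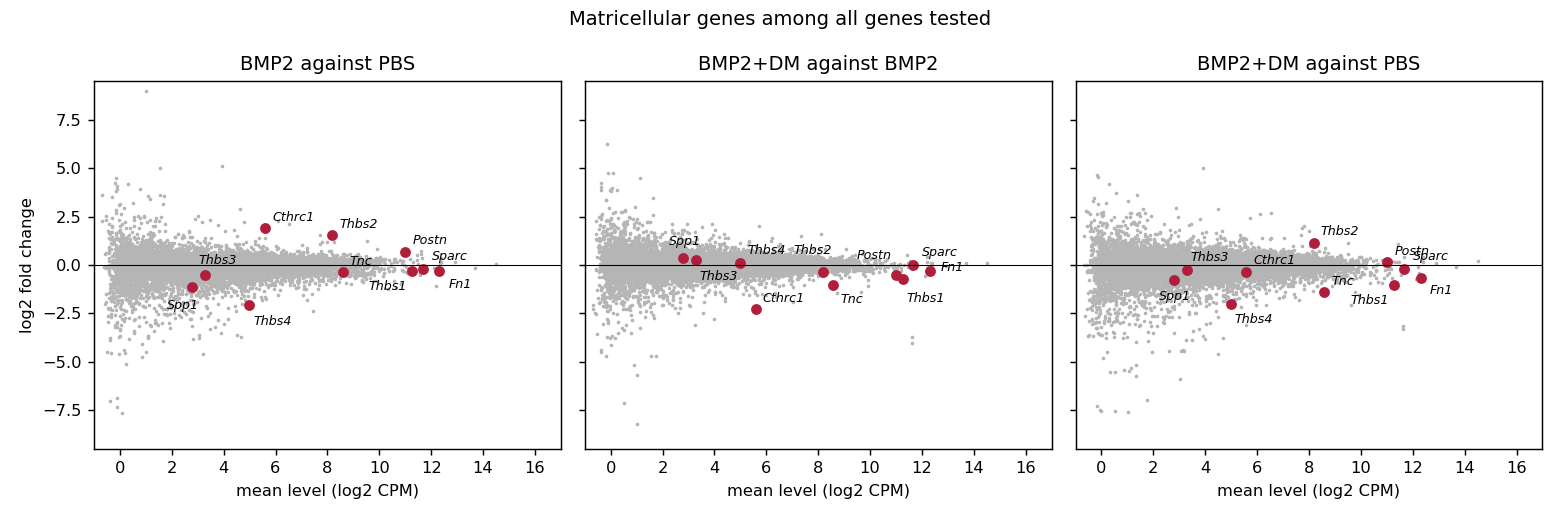
Log2 fold change against mean level (log2 CPM) for all 14378 genes tested (grey) and the 10 matricellular genes (red, named), 1 panel for each comparison. Cthrc1 and Thbs2 lie above the body of genes at their level in BMP2 against PBS, Thbs4 lies below it, and Cthrc1 lies below it in BMP2+DM against BMP2.

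Levels of different genes were compared per kilobase of exon (CPM per kb, union of exons in GENCODE vM21). In BMP2+DM cells the order was Sparc (813), Fn1 (340.5), Thbs1 (261), Postn (212), Thbs2 (45.1), Tnc (25.8), Cthrc1 (12.8), Thbs4 (4.78), Spp1 (3.41) and Thbs3 (1.96), with no neighbours overlapping. In BMP2 cells Sparc (815) was followed by Fn1 and Thbs1 (429 each, overlapping), Postn (307), Cthrc1 (61.6) and Thbs2 (58.4), which overlapped, and then Tnc (53.4), Thbs4 (4.54), Spp1 (2.64) and Thbs3 (1.65). In PBS cells the order was Sparc (946), Fn1 (540) and Thbs1 (526), which overlapped, Postn (191), Tnc (69.0), Thbs2 (20.3) and Thbs4 (19.1), which overlapped, Cthrc1 (16.3), Spp1 (5.93) and Thbs3 (2.34). Sparc led and Thbs3 came last in each group, and among these groups Tnc stood above Thbs2 in PBS cells only. With the longest transcript of each gene in place of all its exons, Thbs1 and Postn changed places in BMP2+DM and BMP2 cells, and Thbs4 and Cthrc1 changed places in PBS cells.

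Within the thrombospondin family the mixture of transcripts shifted. Summed over the 4 genes, the level was 313 and 312 CPM per kb in BMP2+DM cells, 497 and 491 in BMP2 cells and 561 and 575 in PBS cells. Thbs1 made up 83.8% and 83.0% of that sum in BMP2+DM cells, 87.1% and 86.8% in BMP2 cells and 92.7% and 92.6% in PBS cells. The ratio of Thbs2 to Thbs1 per length was 0.169 and 0.177 in BMP2+DM cells, 0.133 and 0.139 in BMP2 cells and 0.0363 and 0.0408 in PBS cells, so it was highest where dorsomorphin was present, without overlap between groups. The share of Thbs4 was 1.495% and 1.56% in BMP2+DM cells, 0.973% and 0.864% in BMP2 cells and 3.49% and 3.24% in PBS cells. Against PBS cells the higher ratio came with more Thbs2 and less Thbs1, whereas against BMP2 cells both were lower in BMP2+DM cells, Thbs1 by more.

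**Figure D4:**
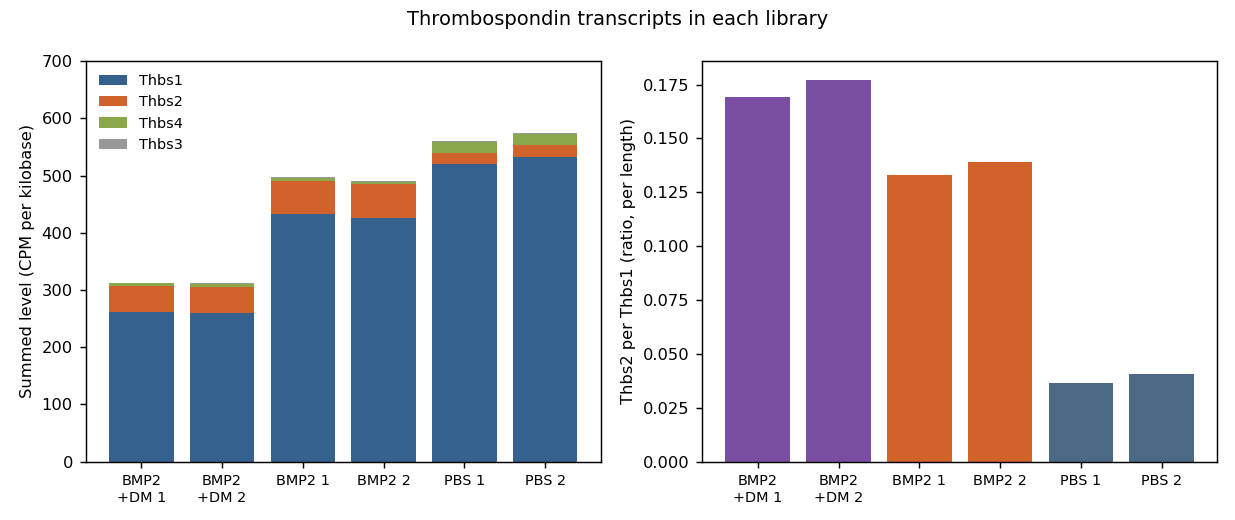
Summed thrombospondin level (CPM per kilobase, stacked by gene, left) and ratio of Thbs2 to Thbs1 per length (right) in each library, BMP2+DM first, then BMP2 and PBS. The sum is 312 and 313 in BMP2+DM libraries, the lowest, where the ratio is highest at 0.169 and 0.177.

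Beside these 10, 31 other matricellular genes were listed, and 25 passed the filter on low counts. In BMP2 against PBS cells 1 rose, 11 fell and 13 did not pass the threshold, with a median log2 fold change of -0.36, beside 6.55% higher, 9.29% lower and a median of 0.00 over all genes tested. Ccn2, which codes for a cysteine-rich cell adhesion protein and is a known target of TGF-beta and YAP signalling, averaged 763 ± 3.04 CPM in BMP2 cells and 1377 ± 19.3 CPM in PBS cells (SD, n = 2 each), a fall of 1.80-fold. Ccn5 rose 1.43-fold, and Fbln2, coding for the matrix glycoprotein fibulin 2, fell 1.77-fold. Fstl1, a follistatin-like glycoprotein, fell 1.28-fold.

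Between BMP2+DM and BMP2 cells 7 of the 25 rose, 6 fell and 12 did not pass, with a median of -0.15, beside 4.28% higher, 4.44% lower and a median of 0.00 over all genes. Fbln2 fell again, averaging 510.4 ± 15.8 CPM in BMP2+DM cells and 863 ± 30.7 CPM in BMP2 cells (SD, n = 2 each). Ccn2 fell 1.48-fold and Ecm1 fell 1.59-fold, while Svep1, which codes for a large adhesion protein, rose 1.85-fold. In BMP2+DM against PBS cells 4 rose, 11 fell and 10 did not pass, with a median of -0.47, beside 9.38% higher, 11.5% lower and a median of 0.01 over all genes. In that comparison Fbln2 fell 2.99-fold, Ccn2 fell 2.66-fold, Ecm1 fell 2.48-fold and Ccn5 rose 1.95-fold. Like Thbs1, Tnc and Fn1, Ccn2 and Fbln2 were lower at each step.

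The 23 listed receptors of these proteins were all tested. In BMP2 against PBS cells 4 rose, 14 fell and 5 did not pass the threshold, with a median log2 fold change of -0.29, where 15.8% of all genes were called in either direction. Itga8, the integrin alpha chain that binds fibronectin, tenascin C and osteopontin, averaged 102.0 ± 0.310 CPM in BMP2 cells and 23.5 ± 6.04 CPM in PBS cells (SD, n = 2 each), a rise of 4.38-fold. Itgb5 fell 1.43-fold, Itga3 fell 1.74-fold and Itgav fell 1.59-fold, all 3 coding for integrin chains. With dorsomorphin added to BMP2, 3 rose, 8 fell and 12 did not pass, with a median of -0.08, where 8.73% of all genes were called. Cd36, a receptor of Thbs1 and Thbs2, rose 1.40-fold, Cd44, a receptor of osteopontin and hyaluronan, fell by 0.58 on the log2 scale, Calr fell 1.28-fold and Itgb5 fell 1.27-fold. Between BMP2+DM and PBS cells 4 rose, 14 fell and 5 did not pass, with a median of -0.37, where 20.9% of all genes were called. The calls included Itga8 with a rise of 6.52-fold, Cd36 with a rise of 1.79-fold, Itgb5 with a fall of 1.82-fold and Itga5, the main fibronectin receptor chain, with a fall of 1.67-fold.

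Of 14 partners in matrix assembly and processing, 0 rose and 7 fell in BMP2 against PBS cells, with a median log2 fold change of -0.29, where 6.55% of all genes were called higher and 9.29% lower. They included the lysyl oxidases Loxl2 (1.47-fold lower) and Lox (1.31-fold lower), the transglutaminase Tgm2 (1.35-fold lower) and the lysyl hydroxylase Plod1 (1.41-fold lower). Between BMP2+DM and BMP2 cells 2 rose and 2 fell (median 0.06, with 4.28% and 4.44% of all genes called higher and lower), the protease Adamts1 rising 1.70-fold, Lox rising 1.15-fold, Loxl2 falling 1.26-fold and P4hb, a subunit of prolyl hydroxylase, falling 1.14-fold. Between BMP2+DM and PBS cells 1 rose and 8 fell (median -0.18, with 9.38% and 11.5% of all genes called higher and lower), including Loxl2 (1.86-fold lower), Plod1 (1.46-fold lower), Tgm2 (1.32-fold lower) and the collagen chaperone Serpinh1 (1.14-fold lower).

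A panel of 5 direct BMP-SMAD targets was read beside the 10 genes. In BMP2 against PBS cells Id2 (log2 fold change 0.57 ± 0.10) and Smad6 (0.29 ± 0.09) rose, while Id3 (0.17 ± 0.07), Id1 (-0.15 ± 0.11) and Smad7 (0.01 ± 0.09) did not pass the threshold. All 5 fell in BMP2+DM against BMP2 cells, by 1.06 for Id3 to 1.93 for Smad6 on the log2 scale. All 5 also fell in BMP2+DM against PBS cells, by 0.89 for Id3 to 1.69 for Id1. All 5 therefore lay below their PBS level in BMP2+DM cells. Over all genes tested, 6.55% were called higher in BMP2 against PBS. The share called lower was 4.44% in BMP2+DM against BMP2 and 11.5% in BMP2+DM against PBS.

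For the 6 genes whose group means spanned at least 1 on the log2 scale, the 3 genes nearest in pattern were found by Euclidean distance of centred log2 CPM over the 6 libraries. Errfi1, Tagln2 and Carmil1 were nearest to Thbs1 (distances 0.134, 0.141 and 0.173), and Tagln2 averaged 298 CPM in BMP2+DM cells, 482 CPM in BMP2 cells and 642 CPM in PBS cells. Heyl, Ptprb and Klhdc8a were nearest to Tnc (0.172, 0.258 and 0.273), and Ptprb, also on the endothelial marker list, averaged 44.6 CPM in BMP2+DM cells, 88.8 CPM in BMP2 cells and 105.3 CPM in PBS cells. Parp14, Acta1 and Igtp were nearest to Thbs4 (0.274, 0.378 and 0.424), and Parp14 averaged 13.7 CPM in BMP2+DM cells, 12.4 CPM in BMP2 cells and 50.01 CPM in PBS cells.

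Timp3, Kcnn2 and Syn3 were nearest to Thbs2 (distances 0.335, 0.364 and 0.380), and Timp3, an inhibitor of metalloproteinases, averaged 864 CPM in BMP2+DM cells, 929 CPM in BMP2 cells and 391 CPM in PBS cells. Timp3 lies inside Syn3 on the opposite strand with 1733 exonic bases shared, so their counts may not be separate. Lims2, H2-T23 and Tor3a were nearest to Spp1 (0.240, 0.294 and 0.343). No gene came as close to Cthrc1, for which Hapln1, Hmcn2 and Piezo2 were nearest at 0.892, 0.934 and 1.09. Piezo2, a mechanosensitive channel, averaged 26.4 CPM in BMP2+DM cells, 78.2 CPM in BMP2 cells and 42.9 CPM in PBS cells. Likeness over 6 libraries is a description, and when Pearson correlation replaced distance only 1 of the 18 named genes was still among the 3 nearest.

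Several of the 10 genes share exonic bases with another gene, and the strand setting used in counting is unknown. Gm29233, opposite Thbs1, had 5.60% and 6.32% of the Thbs1 counts in BMP2+DM cells, 5.96% and 6.09% in BMP2 cells and 5.73% and 5.84% in PBS cells. Apol7d, opposite Fn1, had 3.39% and 3.30% of the Fn1 counts in BMP2+DM cells, 3.25% and 3.48% in BMP2 cells and 3.29% and 3.37% in PBS cells. 8030451A03Rik, opposite Tnc, had 6.52% and 6.89% of the Tnc counts in BMP2+DM cells, 8.08% and 6.72% in BMP2 cells and 8.31% and 7.37% in PBS cells. The ratio thus varied little between groups for Gm29233 and Apol7d, and reads of the 2 strands cannot be told apart here. Mtx1, opposite Thbs3, had more counts than Thbs3, from 268% to 497% of them, so the Thbs3 values are uncertain. Spp1 shares 309 bases, 18.8% of its exonic bases, with Gm42793 on the same strand in GENCODE vM21. No gene of that symbol was counted in these libraries, so whether the overlap bears on the Spp1 counts is unknown.

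Of the 10 cardiomyocyte markers, 0 were called higher and 9 lower in BMP2 against PBS cells. The counts were 4 higher and 0 lower in BMP2+DM against BMP2 cells, and 0 higher and 7 lower in BMP2+DM against PBS cells. Over all genes tested, 6.55% were called higher and 9.29% lower in BMP2 against PBS. The shares were 4.28% and 4.44% in BMP2+DM against BMP2, and 9.38% and 11.5% in BMP2+DM against PBS. Summed levels of markers of other cell types differed between the groups as well. A sum follows its most abundant markers and need not hold for each of them. Smooth muscle and pericyte markers (8 of 8 counted in each group) summed to 1984 to 2088 CPM in BMP2+DM cells, 1969 to 2032 CPM in BMP2 cells and 3211 to 3279 CPM in PBS cells. Of these 8, 1 was called higher, 4 lower and 3 neither in BMP2 against PBS. The counts were 1 higher and 2 lower in BMP2+DM against BMP2, and 1 higher and 5 lower in BMP2+DM against PBS. Endothelial markers (8 of 8) summed to 200.1 to 212 CPM in BMP2+DM cells, 318 to 321 CPM in BMP2 cells and 357 to 364 CPM in PBS cells. Epicardial and mesothelial markers (7 of 7) summed to 96.5 to 100.5 CPM in BMP2+DM cells, 90.3 to 91.0 CPM in BMP2 cells and 157.8 to 158.5 CPM in PBS cells. In BMP2 against PBS, 1 endothelial marker was called higher and 1 lower, and 0 and 5 of the epicardial and mesothelial ones. In BMP2+DM against BMP2 the counts were 0 higher and 4 lower for endothelial, and 3 higher and 1 lower for epicardial and mesothelial markers. In BMP2+DM against PBS they were 0 higher and 6 lower, and 0 higher and 4 lower. Leukocyte markers summed to 62.0 to 64.6 CPM in BMP2+DM cells, 69.1 to 69.5 CPM in BMP2 cells and 92.1 to 92.2 CPM in PBS cells. Of these 8 leukocyte markers, Cx3cr1 had 2 counts over all libraries and Ptprc 22, and 1 marker was at 0 in BMP2+DM cells. Fibroblast markers, the list closest to the source of many of these proteins, were called higher for 2 and lower for 5 of 11 in BMP2 against PBS. They were called higher for 3 and lower for 4 in BMP2+DM against BMP2, and higher for 3 and lower for 6 in BMP2+DM against PBS. The shares over all genes are those given above with the cardiomyocyte markers. Among Schwann cell markers, Erbb3 averaged 18.4 CPM in BMP2+DM cells, 14.6 CPM in BMP2 cells and 11.4 CPM in PBS cells, and was called higher in BMP2+DM against PBS only (log2 fold change 0.70 ± 0.17, edgeR adjusted p = 0.00677). The part of these cell types in the results was not tested.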

How the data were processed

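Polyadenylated RNA of 6 libraries was analysed, 2 each of BMP2+DM, BMP2 and PBS cells, grouped by their titles. What the authors deposited is 1 file of whole-number gene counts a library. STAR, HTSeq, Trimmomatic, FastQC and DESeq2 and the mm10 genome are named per the submitters' processing notes. Their versions, the annotation and the strand setting were not given in the sources used here. Each file's last 5 lines name no gene, held 53.8% to 54.2% of its total and were left out. Most of this was assigned to no feature, at 49.7% to 50.1% of the total, and 0.133% to 0.138% was ambiguous. The reason for the large share without a feature was not tested.

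Of 32245 symbols, 31424 (97.5%) matched GENCODE vM21, which gave positions and exon lengths. No library had a count for 11888, filterByExpr (minimum count 10, minimum total 15) left out 5979, and 14378 were tested. R 4.3.3 and edgeR 4.0.16 fitted all 6 libraries by quasi-likelihood (F test), with TMM scaling, no covariate and 3 residual degrees of freedom. The spread of each gene was moderated with that of all genes tested. Tests and intervals of the 10 genes therefore used 17.3 degrees of freedom, most of them borrowed from other genes. Adjustment was Benjamini-Hochberg over all genes tested, threshold 0.05. SE was taken as the size of the log2 fold change over the root of F. Chi-square per degree of freedom between the libraries of a group was 3.80 for BMP2+DM, 3.58 for BMP2 and 4.27 for PBS. These values leave out the ribosomal-repeat models, and with them they were 3.80, 16.6 and 12.9. This is more spread than random counting gives, and the libraries were counted as separate samples. It cannot show that they came from separate cultures or animals.

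The 10 genes and all lists were chosen with earlier results of these data known, from background knowledge of their roles. All 10 genes are named. Of each other list, up to 4 with the smallest p per comparison are named, the BMP-SMAD panel whole. Nearest genes needed a mean log2 CPM of at least 2, leaving out predicted genes and pseudogenes. RefSeq promoter windows were matched by symbol for 7 of the 10 genes. Alternatives were other scalings, no low-count filter, DESeq2 1.42.0, limma-voom (limma 3.58.1), a minimum fold of 1.5, the replicate block, leaving out libraries, only the groups compared, and the ribosomal-repeat models left out. Results of some marker genes are not reported here.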

Additional observations from a re-analysis of the deposited data

How the results depend on the processing

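Of 480 values of single genes under the alternatives, 448 kept their direction and their side of the threshold, 27 kept their direction without the call and 5 reversed. The reversals were in BMP2+DM against BMP2 and none of these values was called. Sparc was at 0.0236 with no scaling and spanned -0.0199 to 0.0127 with 1 library left out, Thbs3 spanned -0.000159 to 0.46 and Thbs4 -0.0180 to 0.17. Against a minimum fold of 1.5, edgeR called 3 of the 10 genes in BMP2 against PBS, 2 in BMP2+DM against BMP2 and 4 in BMP2+DM against PBS, and 291, 98 and 424 genes in all, in place of 9, 6 and 8 of the 10 and 2277, 1255 and 3007 in all. With 1 library left out, genes called spanned 1318 to 2470 in BMP2 against PBS, 670 to 1081 in BMP2+DM against BMP2 and 1827 to 2928 in BMP2+DM against PBS. Counts moved by over 1.5 times without PBS 1 (1409), PBS 2 (1318), BMP2 1 (1472) or BMP2 2 (1445) in BMP2 against PBS, without BMP2+DM 2 (828), BMP2 1 (670) or BMP2 2 (721) in BMP2+DM against BMP2, and without PBS 1 (1972) or PBS 2 (1827) in BMP2+DM against PBS. Without both libraries high in ribosomal repeats (first PBS, first BMP2), 574, 313 and 1388 genes were called and 8, 6 and 6 of the 10. With these libraries out, Spp1 lost its calls against PBS (-1.45 in BMP2 and -0.74 in BMP2+DM), and Postn was at 0.09 in BMP2+DM against PBS. Leaving libraries out means fewer samples, and the cause was not tested further. With no scaling, calls in BMP2+DM against PBS were 1840 higher and 1377 lower, in place of 1349 higher and 1658 lower, with 2 and 6 of the 10 under both. In BMP2+DM against BMP2 they were 749 higher and 553 lower, in place of 616 and 639.

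Deviations of libraries with the same replicate number correlated at 0.02 between BMP2 and PBS and -0.04 between BMP2+DM and BMP2. The value was -0.02 between BMP2+DM and PBS, so no effect shared by replicate number was seen across genes. These values cannot show whether libraries of the same number shared a culture or preparation. With the replicate block, 9, 6 and 8 of the 10 genes and 2261, 1226 and 2960 genes were called. The fewest counts of the 10 were those of Spp1, 36 to 142 a library, and Thbs3, 76 to 164.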
